A study of Mus musculus with 12 samples.

Results

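The chemokine ligand genes were followed through the muscle lineage of Lbr-knockout and Lmna-knockout mice; Lbr encodes a sterol reductase of the inner nuclear membrane that tethers chromatin, and Lmna the A-type lamins, filament proteins of the nuclear lamina. They were chosen by name, as the rows of the deposited expression table whose symbol begins with Ccl, Cxcl, Cx3cl or Xcl and a number, and they make up 39 of the 22552 genes. Of these, 24 belong to the CC subfamily and 13 to the CXC subfamily, and the remaining members are Cx3cl1 and Xcl1. RNA sequencing had been performed on 12 samples, 6 of myoblasts and 6 of striated muscle.

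All mice were C57Bl/6, and no treatment is given. The groups were Lbr-knockout myoblasts (2 samples) and a wild-type myoblast sample of the same litter (1 sample), Lmna-knockout myoblasts (2 samples) and a wild-type myoblast sample of that litter (1 sample), Lbr-knockout muscle (2 samples), Lmna-knockout muscle (2 samples) and a wild-type muscle group that serves both knockouts (2 samples). The knockouts descended from heterozygous parents and the wild types were littermates. The sources used here name neither the deleted part of each gene nor the age or sex of the animals. The myoblast and muscle libraries were prepared with different kits, so kit and tissue cannot be told apart.

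Chemokines are small secreted or membrane-bound proteins that guide leukocytes through G protein-coupled receptors. Inflammatory members such as Ccl2 and the Cxcl1 family are induced by cytokines and draw monocytes or neutrophils into injured muscle. Homeostatic members such as Ccl19, Ccl21 and Cxcl13 are made in lymphoid tissue and position lymphocytes and dendritic cells, and Cxcl12 retains progenitor cells and guides migrating muscle precursors.

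The unit throughout is FPKM, the number of fragments per kilobase of transcript after scaling to library depth, with a single deposited value per gene and group. No group therefore has a replicate error, and the comparisons of knockout with littermate or shared wild type have no replicate check and no p-value. The words higher and lower, as calls, stand for a difference of 2-fold or more on log2(FPKM + 1), a log2 difference of 1, which understates the change of weakly expressed genes. Genes below a mean of 1 FPKM in the tissue, or listed at 0 in a compared column, were not compared.

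Lbr stood at 7.71 FPKM in Lbr-knockout myoblasts against 16.1 FPKM in their littermate (a log2 difference of -0.97, just short of 2-fold), and at 1.87 FPKM in Lbr-knockout muscle against 11.8 FPKM in wild-type muscle. Lmna stood at 18.5 FPKM in Lmna-knockout myoblasts against 147 FPKM in their littermate, and at 22.6 FPKM in Lmna-knockout muscle against 59.5 FPKM in wild-type muscle. The muscle columns held 13887 to 17215 FPKM of the fibre actin Acta1. Among the myoblast columns, the lineage factor Myod1 was at 2.09 to 5.51 FPKM and desmin (Des) at 18.7 to 85.2 FPKM, while the progenitor factors Pax7 and Myf5 did not reach 1 FPKM in any of them. The macrophage lysozyme Lyz2 was at 316 to 1131 FPKM in the same myoblast columns. Total counts are unknown. By the spacing of low values, 1 FPKM over 1 kb corresponded to about 16.4 fragments in each wild-type myoblast column and 4.16 in wild-type muscle, so the low muscle values rest on few fragments.

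Of the 39 members, 33 reached 1 FPKM in some column, 23 of them in a myoblast column and 25 in a muscle column. The overlap was 15 members, with 8 that reached this level only in myoblasts and 10 only in muscle. The share over all genes was not taken for this split, so it is not a result about the members. Ccl21b,Gm13304, Ccl26, Ccl28, Cxcl11, Cxcl15 and Cxcl17 stayed below 1 FPKM throughout, at most 0.815 FPKM, and Ccl28 was listed at 0 everywhere. Myoblasts were dominated by few ligands. The 3 most abundant members made up 73.0% to 80.5% of all chemokine FPKM in myoblasts and 44.0% to 57.2% in muscle. At least 10 FPKM in every myoblast column was found for Ccl2, Ccl7, Cx3cl1 and Cxcl12, and in every muscle column for Cxcl12 and Ccl27a. The summed FPKM of the members was 421 in Lbr-knockout myoblasts against 309 in their littermate, and 585 in Lmna-knockout myoblasts against 673 in theirs. In muscle it was 211 with the Lbr knockout and 177 with the Lmna knockout, against 104 in wild-type muscle. These muscle sums hold the row Ccl21a,Gm1987, at 26.1 and 17.2 FPKM in Lbr- and Lmna-knockout muscle and 0.00249 FPKM in wild-type muscle. They leave out the row Gm1987, at 10.5 FPKM in wild-type muscle, which the naming rule does not take. Both knockout muscle columns held 24 members at 1 FPKM or more and wild-type muscle 14. Over all genes, 12256 reached this level in Lbr-knockout, 12239 in Lmna-knockout and 11809 in wild-type muscle. The row Ccl21a,Gm1987 is among the 24 in each knockout and not among the 14.

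**Figure D1:**
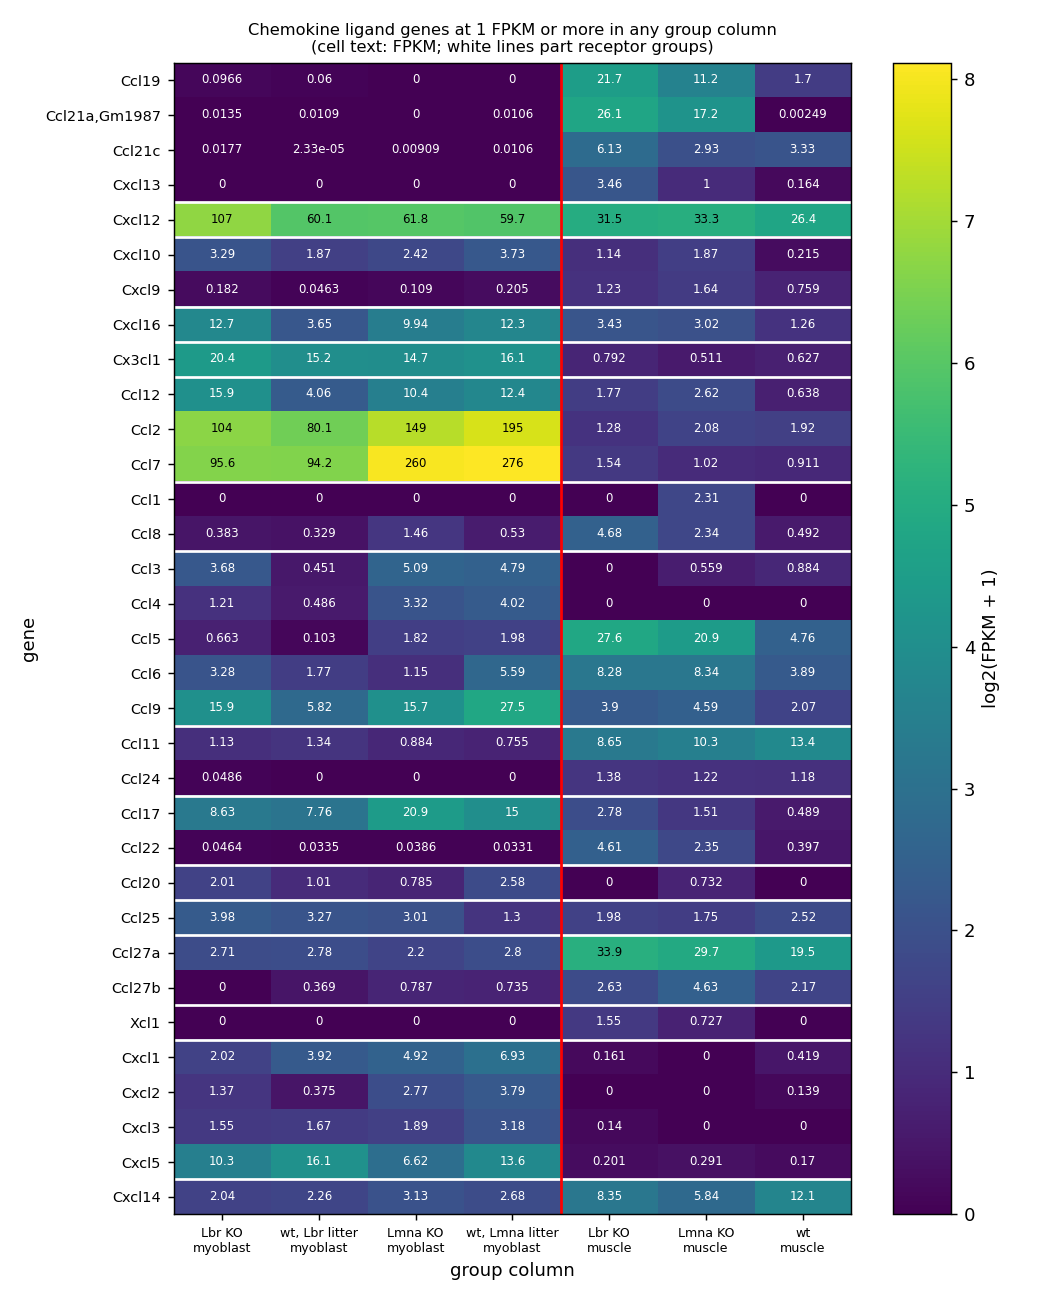
Heat map of the 33 chemokine ligand genes that reached 1 FPKM in any column (rows, grouped by receptor) over the 7 group columns, coloured by log2(FPKM + 1) with the FPKM value written in each cell. Ccl2, Ccl7 and Cxcl12 are brightest in the 4 myoblast columns, and Ccl19, Ccl5 and the row Ccl21a,Gm1987 are bright in the 2 knockout muscle columns and dark in myoblasts.

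In muscle, the CCR7 ligand Ccl19, the T-cell attracting Ccl5, and Ccl22 and Ccl8 were at least 2-fold higher in both knockouts than in the wild type. Of 23 members compared in Lbr-knockout muscle, 7 were at least 2-fold higher and 0 lower, where 1.3% of all genes compared were higher and 0.265% lower. Their median log2 difference was 0.76, beside 0.10 over all genes. Of 23 members compared in Lmna-knockout muscle, 7 were likewise higher and 0 lower, where 1.93% of all genes were higher and 0.762% lower, with a median of 0.78 beside 0.13 over all genes. Both knockouts share the same wild-type muscle column, so their differences are not independent of each other. Of the 7 higher members, 5 in each knockout were under 1 FPKM in the wild type and entered the comparison only through the knockout columns, so these counts and medians describe the members and are no support for a difference. With a pseudocount of 5 in place of 1, 3 members were higher in each knockout, and with the Ccl21a,Gm1987 and Gm1987 rows summed, 7 for Lbr and 6 for Lmna. In bulk tissue, more cells of a type and more RNA per cell cannot be told apart.

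Ccl19, the CCR7 ligand that lymphoid stroma makes to hold T cells and dendritic cells, stood at 21.7 FPKM in Lbr-knockout muscle and 11.2 FPKM in Lmna-knockout muscle, against 1.70 FPKM in wild-type muscle. Both knockout columns are high and the wild type is low, with log2 differences of 3.08 for Lbr and 2.17 for Lmna. Cxcl13, the CXCR5 ligand that draws B cells into follicles, was at 3.46 FPKM in Lbr-knockout muscle and 1.00 FPKM in Lmna-knockout muscle, against 0.164 FPKM in wild-type muscle. Only the Lbr value passed 2-fold, with a log2 difference of 1.94 beside 0.78 for Lmna. The wild-type value of Cxcl13 corresponds to fewer fragments than a single one by the spacing estimate (0.784).

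The third lymphoid ligand, Ccl21, which brings naive T cells and dendritic cells to CCR7, is carried by several near-identical gene copies, and its rows need to be read together. The row of the joined symbol Ccl21a,Gm1987 was at 26.1 FPKM in Lbr-knockout muscle and 17.2 FPKM in Lmna-knockout muscle, against 0.00249 FPKM in wild-type muscle. The separate row Gm1987, which the naming rule leaves out, ran the other way, at 0.0375 FPKM with the Lbr knockout and 0.0820 FPKM with the Lmna knockout, against 10.5 FPKM in wild-type muscle. Each column therefore holds nearly all of the signal in one of these rows. Read alone, Ccl21a,Gm1987 gives the largest difference of any member, a log2 value of 4.75 for Lbr and 4.18 for Lmna. With both rows summed, the log2 difference was 1.24 for Lbr and 0.67 for Lmna, below 2-fold for the Lmna knockout. Ccl21c was at 6.13 FPKM in Lbr-knockout muscle and 2.93 FPKM in Lmna-knockout muscle, against 3.33 FPKM in wild-type muscle, and did not reach 2-fold in either. The copy Gm13304, again outside the naming rule, was at 6.02 FPKM with the Lbr knockout and 2.91 FPKM with the Lmna knockout, against 3.39 FPKM in wild-type muscle. Over all 5 rows of the copies, the sum was 38.3 FPKM and 23.1 FPKM in Lbr- and Lmna-knockout muscle, against 17.2 FPKM in wild-type muscle, a log2 difference of 1.11 for Lbr and 0.40 for Lmna.

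How alike the copies are is shown by their coding sequences, here the bases 74 to 204 of the coding part in GENCODE M21 (GRCm38), which hold every position at which the Ccl21a gene and the Gm13304 copy differ. The capitals mark these positions, T84A and C194T, counted from the first coding base with the Ccl21a base first. Over 402 coding bases the copies have 2 mismatches and 99.5% identity, and Ccl21b, Gm10591 and Gm21541 carry the same coding sequence as Gm13304. The sequence of Gm1987 was not used here.
Ccl21a: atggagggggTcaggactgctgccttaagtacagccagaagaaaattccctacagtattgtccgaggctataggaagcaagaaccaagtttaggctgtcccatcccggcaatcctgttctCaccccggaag
Gm13304: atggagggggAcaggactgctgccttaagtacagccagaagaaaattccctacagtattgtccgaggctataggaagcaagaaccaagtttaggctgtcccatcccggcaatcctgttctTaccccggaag

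**Figure D2:**
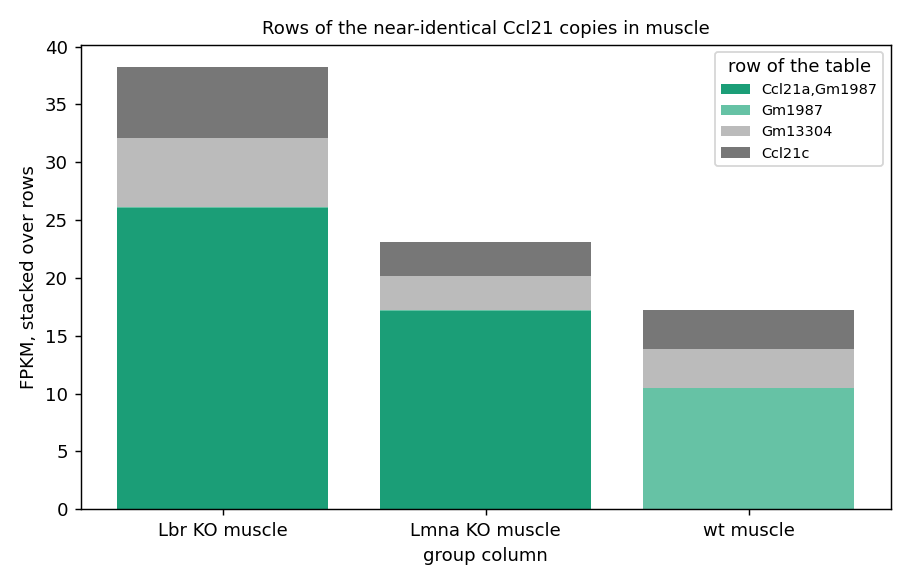
Stacked bars of FPKM for the rows Ccl21a,Gm1987, Gm1987, Gm13304 and Ccl21c in Lbr-knockout, Lmna-knockout and wild-type muscle. The Ccl21a,Gm1987 part is 26.1 and 17.2 FPKM in the knockouts and not visible in the wild type, where the Gm1987 part is 10.5 FPKM.

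By FPKM, several other ligands of T cells and dendritic cells were highest in Lbr-knockout and lowest in wild-type muscle. Ccl5, which attracts effector T cells and monocytes through CCR1 among other receptors, was at 27.6 FPKM in Lbr-knockout muscle and 20.9 FPKM in Lmna-knockout muscle, against 4.76 FPKM in wild-type muscle, log2 differences of 2.31 and 1.92. Ccl22, a dendritic-cell product that attracts CCR4-bearing T cells, was at 4.61 FPKM with the Lbr knockout and 2.35 FPKM with the Lmna knockout, against 0.397 FPKM in wild-type muscle, log2 differences of 2.01 and 1.26. Both genes are thus high in each knockout column and low in the wild type. Ccl17, the other CCR4 ligand, was at 2.78 FPKM with the Lbr knockout and 1.51 FPKM with the Lmna knockout, against 0.489 FPKM in wild-type muscle, past 2-fold for Lbr alone (log2 differences 1.34 and 0.76). Ccl8, a CCR8 ligand in the mouse, was at 4.68 FPKM with the Lbr knockout and 2.34 FPKM with the Lmna knockout, against 0.492 FPKM in wild-type muscle, past 2-fold in both (1.93 and 1.16). The wild-type values of Ccl17 and Ccl8 each correspond to about 1.05 fragments. Xcl1, made by T and NK cells for XCR1-bearing dendritic cells, was at 1.55 FPKM with the Lbr knockout and 0.727 FPKM with the Lmna knockout, and was listed at 0 in wild-type muscle. In Lbr- and Lmna-knockout muscle, about 4.62 and 4.97 fragments stood behind Ccl17, 7.74 and 7.64 behind Ccl8, and 2.63 and 2.43 behind Xcl1. The order of the knockouts for these genes, and the call of Ccl17 for Lbr alone, thus rest on few fragments. Ccl1, the other CCR8 ligand, was at 2.31 FPKM in Lmna-knockout muscle and listed at 0 in Lbr-knockout and wild-type muscle.

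The interferon-induced Cxcl10 and the monocyte ligand Ccl12 passed 2-fold in the Lmna knockout alone. Cxcl10, induced by interferon to attract CXCR3-bearing T cells, was at 1.14 FPKM with the Lbr knockout and 1.87 FPKM with the Lmna knockout, against 0.215 FPKM in wild-type muscle, past 2-fold for Lmna alone (log2 differences 0.82 and 1.24). Ccl12, a mouse CCR2 ligand, was at 1.77 FPKM with the Lbr knockout and 2.62 FPKM with the Lmna knockout, against 0.638 FPKM in wild-type muscle, again past 2-fold for Lmna alone (0.76 and 1.14). For both genes the Lmna knockout is the highest of the 3 columns. Cxcl9, a further CXCR3 ligand, was at 1.23 FPKM with the Lbr knockout and 1.64 FPKM with the Lmna knockout, against 0.759 FPKM in wild-type muscle. Cxcl16, a membrane-bound CXCR6 ligand, was at 3.43 FPKM and 3.02 FPKM with the Lbr and the Lmna knockout, against 1.26 FPKM in wild-type muscle. Ccl6 and Ccl9, ligands of CCR1 in the mouse, stayed below 2-fold, with log2 differences of 0.92 and 0.67 for Lbr and 0.93 and 0.87 for Lmna. Ccl6 was at 8.28 FPKM with the Lbr knockout and 8.34 FPKM with the Lmna knockout, against 3.89 FPKM in wild-type muscle. Ccl9 was at 3.90 FPKM with the Lbr knockout and 4.59 FPKM with the Lmna knockout, against 2.07 FPKM in wild-type muscle. The CCR2 ligands Ccl2 and Ccl7, the leading members of myoblasts, were scarce in every muscle column, where they ranged from 0.911 to 2.08 FPKM.

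The ligands at 10 FPKM or more in every muscle column, Cxcl12 and Ccl27a, did not reach 2-fold. Cxcl12, the CXCR4 ligand of stroma, was at 31.5 FPKM with the Lbr knockout and 33.3 FPKM with the Lmna knockout, against 26.4 FPKM in wild-type muscle. Ccl27a, a CCR10 ligand, was at 33.9 FPKM with the Lbr knockout and 29.7 FPKM with the Lmna knockout, against 19.5 FPKM in wild-type muscle, log2 differences of 0.77 and 0.58. Its neighbour in name Ccl27b was at 2.63 FPKM and 4.63 FPKM with the Lbr and the Lmna knockout, against 2.17 FPKM in wild-type muscle. Lower values in both knockouts were found for the eosinophil ligand Ccl11 and for Cxcl14, a chemokine of epithelia and stroma, without reaching 2-fold. Ccl11 was at 8.65 FPKM with the Lbr knockout and 10.3 FPKM with the Lmna knockout, against 13.4 FPKM in wild-type muscle. Cxcl14 was at 8.35 FPKM with the Lbr knockout and 5.84 FPKM with the Lmna knockout, against 12.1 FPKM in wild-type muscle, log2 differences of -0.48 and -0.93. Ccl24, an eosinophil ligand like Ccl11, lay between 1.18 and 1.38 FPKM, and Ccl25, the CCR9 ligand of thymus and gut, between 1.75 and 2.52 FPKM. The neutrophil ligands Cxcl1, Cxcl2, Cxcl3 and Cxcl5 stayed under 0.5 FPKM in all 3 muscle columns. Ccl3, Ccl20 and the membrane-bound Cx3cl1 stayed under 1 FPKM there, and Ccl4 was listed at 0 in all 3.

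**Figure D3:**
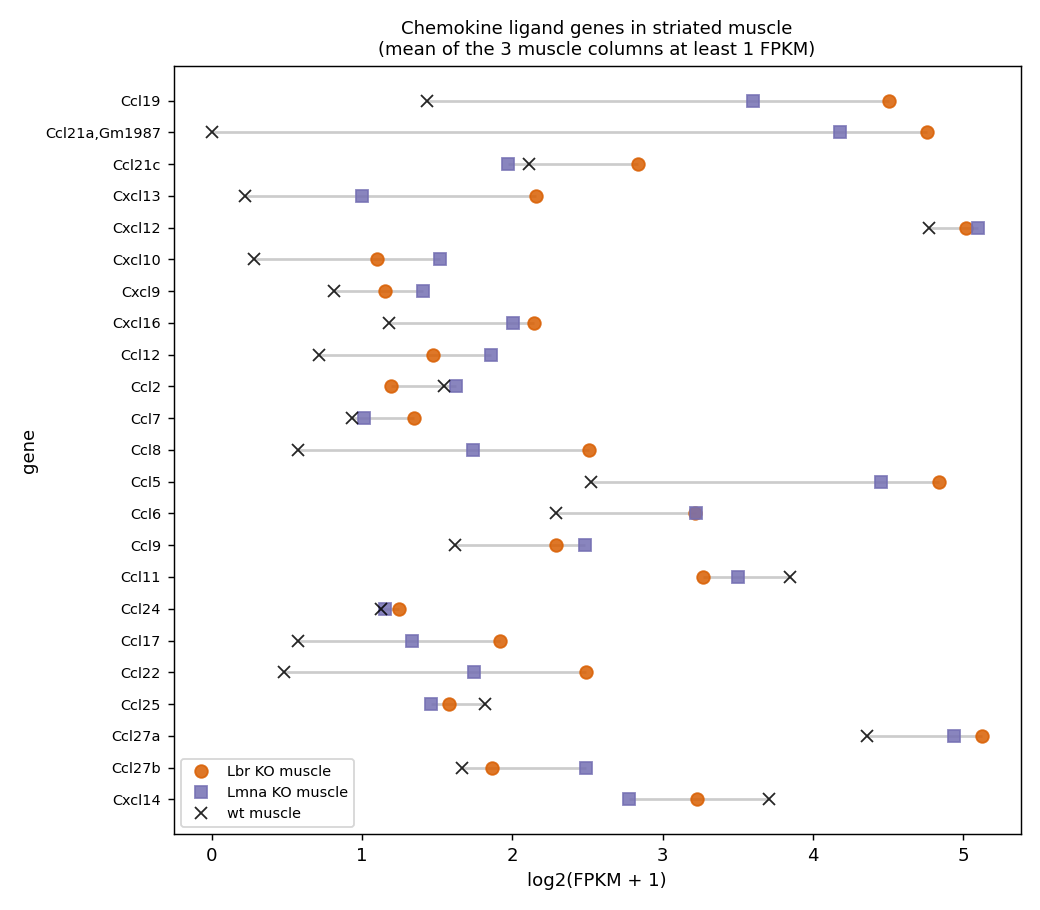
Levels of the 23 compared chemokine ligand genes in muscle on the log2(FPKM + 1) scale, with circles for the Lbr knockout, squares for the Lmna knockout and crosses for the wild type. For Ccl19, Ccl5, Ccl22, Ccl8 and the row Ccl21a,Gm1987, both knockouts lie to the right of the wild type by more than a log2 value of 1, while Ccl11 and Cxcl14 lie to its left.

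Set directly against each other, the knockout muscles differed at 2-fold in a single member. Of 23 members compared, Cxcl13 was higher in Lbr-knockout than in Lmna-knockout muscle, with a log2 difference of 1.15, and 0 were lower. Over all genes 0.679% were higher and 0.812% lower, and the member median was 0.14 beside -0.02. Ccl19 fell short of 2-fold in the same direction, at a log2 difference of 0.90, as did Ccl21c at 0.86. Neither difference has a replicate check.

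Most markers of lymphoid cells, though not all, moved with these ligands. The summed FPKM of 10 B-cell genes was 57.3 in Lbr-knockout muscle and 34.1 in Lmna-knockout muscle, against 13.6 in wild-type muscle, with 4 of 8 compared genes at least 2-fold higher for Lbr and 3 of 8 for Lmna. Pax5 ran the other way, at 0.405 FPKM with the Lbr knockout and 0.851 FPKM with the Lmna knockout, against 1.20 FPKM in wild-type muscle. Blk did so too, at 1.20 FPKM and 0.595 FPKM in the knockouts of Lbr and Lmna, against 1.35 FPKM. For 13 T-cell genes the sum was 36.7 with the Lbr knockout and 29.5 with the Lmna knockout, against 16.4 in wild-type muscle. Of the 12 T-cell genes compared, 4 were higher for Lbr, and 2 were higher and 1 lower (Cd28) for Lmna. The sum of 4 genes of high endothelial venules, the vessels through which lymphocytes enter lymph nodes, was 56.1 with the Lbr knockout and 55.0 with the Lmna knockout, against 22.4 in wild-type muscle. Nearly all of it was Glycam1, at 54.2 FPKM and 53.2 FPKM in the knockouts of Lbr and Lmna, against 21.3 FPKM in wild-type muscle. The venule gene Fut7 was lower, at 0.399 FPKM and 0.343 FPKM in the same order, against 0.680 FPKM in wild-type muscle. The 7 dendritic-cell genes summed to 102 with the Lbr knockout and 67.6 with the Lmna knockout, against 26.8 in wild-type muscle. Cd74, H2-Aa and H2-Ab1, which B cells also express, gave 98.5 of the sum with the Lbr knockout and 64.4 with the Lmna knockout, against 24.8 in wild-type muscle. Xcr1 was at 1.08 FPKM with the Lbr knockout and 0.483 FPKM with the Lmna knockout, against 0.650 FPKM in wild-type muscle. The 10 neutrophil genes summed to 170 with the Lbr knockout and 232 with the Lmna knockout, against 67.9 in wild-type muscle. S100a8 and S100a9 gave 148 of the sum with the Lbr knockout and 174 with the Lmna knockout, against 48.0 in wild-type muscle. The granule gene Camp was at 5.44 FPKM with the Lbr knockout and 23.7 FPKM with the Lmna knockout, against 11.7 FPKM in wild-type muscle, lower for Lbr without reaching 2-fold. Macrophage genes differed less, at 206 with the Lbr knockout and 191 with the Lmna knockout, against 151 in wild-type muscle over 14 genes. None of the genes in these lists was listed at 0 in a muscle column. The part of these cells in the chemokine differences was not tested.

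Genes of lymphatic vessels, which make Ccl21 themselves, differed less. The sum of 6 lymphatic endothelial genes was 25.4 with the Lbr knockout and 20.96 with the Lmna knockout, against 22.5 in wild-type muscle, and 0 of 6 reached 2-fold in either knockout. Among 18 chemokine receptors, Ccr7, the receptor of Ccl19 and Ccl21, was at 3.83 FPKM with the Lbr knockout and 2.26 FPKM with the Lmna knockout, against 0.981 FPKM in wild-type muscle (log2 differences 1.29 and 0.72). It was the only one of 5 receptors compared that passed 2-fold in Lbr-knockout muscle, and 0 of 5 did in Lmna-knockout muscle. Cxcr5, the receptor of Cxcl13, was at 1.83 FPKM with the Lbr knockout and 1.44 FPKM with the Lmna knockout, against 0.577 FPKM in wild-type muscle, below 2-fold in both. Of 11 lymphotoxin and NF-kB genes compared, 1 was past 2-fold in each knockout, namely Ltb. This lymphotoxin subunit, which acts upstream of Ccl19, Ccl21 and Cxcl13 in lymphoid stroma, was at 3.53 FPKM with the Lbr knockout and 3.79 FPKM with the Lmna knockout, against 1.21 FPKM in wild-type muscle. Of 9 interferon genes compared, 0 passed 2-fold in either knockout, though all 9 lay above the wild type in each.

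**Figure D4:**
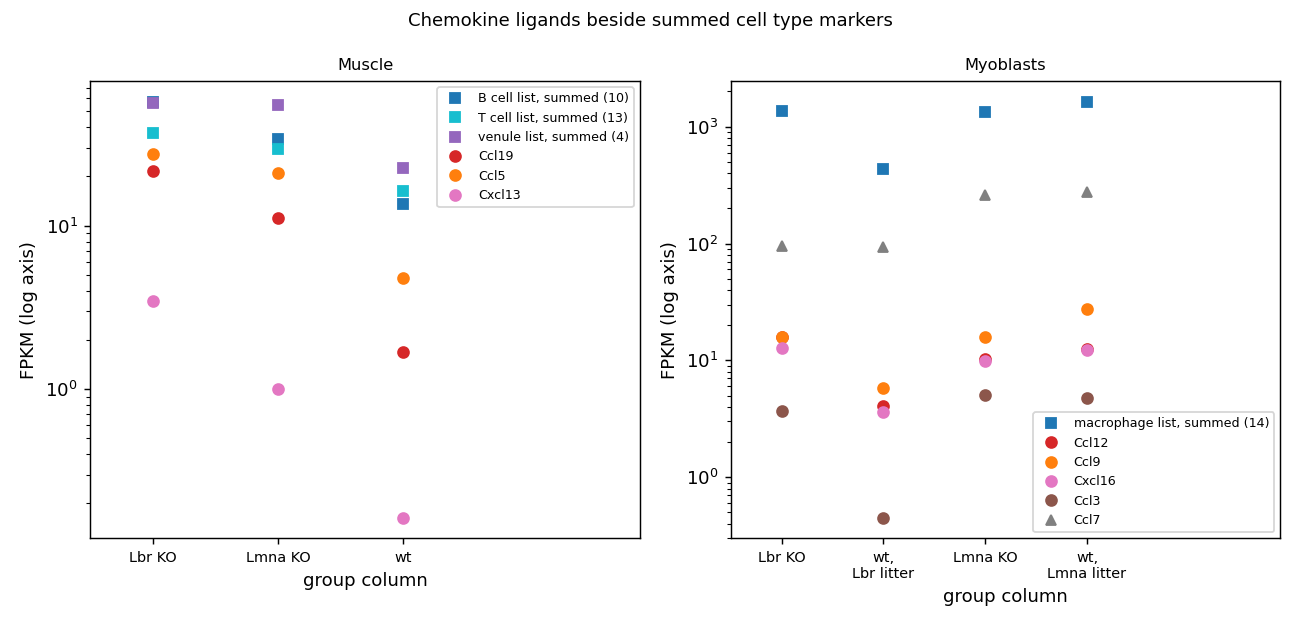
FPKM on a log axis of selected chemokine ligands (circles and a triangle) and of summed marker lists (squares, number of genes in brackets), for muscle on the left and myoblasts on the right. In muscle the wild type is lowest for Ccl19, Ccl5, Cxcl13 and the B-cell, T-cell and venule sums, and in myoblasts the wild type of the Lbr litter is lowest for Ccl12, Ccl9, Cxcl16, Ccl3 and the macrophage sum of 437.

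In myoblasts, 4 ligands of the monocyte and macrophage system were higher in the Lbr knockout than in its littermate. Of 22 members compared, 4 were at least 2-fold higher and 0 lower, where 2.48% of all genes were higher and 0.122% lower, and the member median was 0.48 beside 0.05. In the Lmna knockout 0 of 22 were higher and 2 were lower, where 0.602% of all genes were higher and 0.602% lower, and the member median was -0.25 beside 0.04.

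Ccl12 was at 15.9 FPKM in Lbr-knockout myoblasts against 4.06 FPKM in the littermate, and at 10.4 FPKM in Lmna-knockout myoblasts against 12.4 FPKM in theirs. Cxcl16 was at 12.7 FPKM with the Lbr knockout against 3.65 FPKM in the littermate, and at 9.94 FPKM with the Lmna knockout against 12.3 FPKM. Ccl9 was at 15.9 FPKM with the Lbr knockout against 5.82 FPKM, and at 15.7 FPKM with the Lmna knockout against 27.5 FPKM. In each of these the wild type of the Lbr litter is the low column, and the other 3 are close together or higher. Ccl3, a CCR1 ligand of activated macrophages, was at 3.68 FPKM with the Lbr knockout against 0.451 FPKM, and at 5.09 FPKM with the Lmna knockout against 4.79 FPKM. The log2 differences of the Lbr knockout from its littermate were 1.74 for Ccl12, 1.69 for Ccl3, 1.56 for Cxcl16 and 1.31 for Ccl9. Set against the Lmna-litter wild type, the difference was 0.33 for Ccl12, -0.31 for Ccl3, 0.05 for Cxcl16 and -0.75 for Ccl9, so that Ccl3 and Ccl9 had the opposite sign.

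These 4 genes are those members for which the Lbr-litter wild type lay at least 2-fold below every other myoblast column, 4 of 22, where 0.716% of all genes did so. Between the wild types themselves, 10 of 22 members were at least 2-fold higher in the Lmna litter than in the Lbr litter and 0 were lower, where 2.03% of all genes were higher and 0.687% lower. The member median of this difference was 0.85 beside 0.07. With a pseudocount of 5 the count was 3. The 10 were Ccl9 (log2 difference 2.06), Ccl3 (1.997), Cxcl2 (1.80), Ccl4 (1.76), Ccl7 (1.54), Cxcl16 (1.52), Ccl5 (1.44), Ccl12 (1.41), Ccl2 (1.27) and Ccl6 (1.25). The summed FPKM of 14 macrophage genes was 1369 in Lbr-knockout myoblasts against 437 in their littermate, and 1344 in Lmna-knockout myoblasts against 1631 in theirs. Of 13 macrophage genes compared, 13 were at least 2-fold higher in the Lbr knockout than in its littermate, 0 of 13 in the Lmna knockout, and 12 of 13 in the Lmna-litter wild type than in the Lbr-litter wild type. None was listed at 0 in any myoblast column, and their part in the ligand differences was not tested. The fractalkine receptor gene Cx3cr1, which macrophages carry, was low in the same column. It was at 5.24 FPKM with the Lbr knockout against 1.25 FPKM, and at 3.42 FPKM with the Lmna knockout against 4.40 FPKM. Ccr1, the receptor of Ccl6 and Ccl9, was at 2.70 FPKM with the Lbr knockout against 0.675 FPKM, and at 1.79 FPKM with the Lmna knockout against 1.96 FPKM.

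Ccl7, Ccl2 and Ccl17 differed more between the litters than between knockout and littermate. Ccl7, a CCR2 ligand, was at 95.6 FPKM in Lbr-knockout myoblasts against 94.2 FPKM in the littermate, and at 260 FPKM in Lmna-knockout myoblasts against 276 FPKM in theirs. Both Lmna-litter columns are thus at least 2-fold above both Lbr-litter columns. Ccl7 was the only 1 of 22 members with this pattern, which 0.201% of all genes had. Ccl2, the main monocyte attractant, was at 104 FPKM with the Lbr knockout against 80.1 FPKM, and at 149 FPKM with the Lmna knockout against 195 FPKM. Ccl17 was at 8.63 FPKM with the Lbr knockout against 7.76 FPKM, and at 20.9 FPKM with the Lmna knockout against 14.99 FPKM. For both genes too the Lmna-litter columns are the higher pair, by less than 2-fold in part.

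Cxcl12 had a different shape. It was at 107 FPKM in Lbr-knockout myoblasts against 60.1 FPKM in the littermate, and at 61.8 FPKM in Lmna-knockout myoblasts against 59.7 FPKM in theirs. The other 3 columns lie within 59.7 to 61.8 FPKM and the Lbr knockout alone stands above them, with a log2 difference of 0.83 that does not reach 2-fold. The same knockout column held 12.8 FPKM of the epithelial and mesothelial keratin Krt18, against 0.219 FPKM in its littermate, and 0.509 FPKM in the Lmna knockout against 0.251 FPKM. Of 3 compared genes of epithelium and mesothelium, 2 were at least 2-fold higher in the Lbr knockout than in its littermate, where 2.48% of all genes were. Krt19 was not, at 7.44 FPKM with the Lbr knockout against 5.45 FPKM. Its highest values were 26.3 FPKM in the Lmna knockout and 17.3 FPKM in that littermate. The part of epithelial or mesothelial cells in the Cxcl12 level was not tested. Cx3cl1, a membrane-anchored adhesive chemokine, was at 20.4 FPKM with the Lbr knockout against 15.2 FPKM, and at 14.7 FPKM with the Lmna knockout against 16.1 FPKM.

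In the Lmna knockout, the 2 lower members were Ccl6 and Ccl20. Ccl6 was at 1.15 FPKM in Lmna-knockout myoblasts against 5.59 FPKM in the littermate, and at 3.28 FPKM in Lbr-knockout myoblasts against 1.77 FPKM in theirs. Its log2 difference was -1.62 for Lmna, and -0.37 against the Lbr-litter wild type. Ccl20, the CCR6 ligand, was at 0.785 FPKM with the Lmna knockout against 2.58 FPKM, and at 2.01 FPKM with the Lbr knockout against 1.01 FPKM. Its log2 difference of -1.003 for Lmna lies at the limit of the call and was -0.17 against the Lbr-litter wild type. Against the wild type that is not its littermate, the Lmna knockout had 9 members higher and 1 (Cxcl5) lower, and in the Lbr knockout 1 (Ccl25) was higher and 4 (Ccl4, Ccl7, Cxcl1 and Cxcl2) were lower. The share over all genes was not taken for these cross-litter comparisons, so the counts are not a result about the members.

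Of the neutrophil ligands of the CXCR2 group, Cxcl1, Cxcl2, Cxcl3 and Cxcl5 reached 1 FPKM in myoblasts, and Cxcl15 was at most 0.0625 FPKM. Cxcl5 was at 10.3 FPKM with the Lbr knockout against 16.1 FPKM in the littermate, and at 6.62 FPKM with the Lmna knockout against 13.6 FPKM. Cxcl1 was at 2.02 FPKM with the Lbr knockout against 3.92 FPKM, and at 4.92 FPKM with the Lmna knockout against 6.93 FPKM. Both are lower in each knockout than in its own littermate, with log2 differences of -0.59 and -0.94 for Cxcl5 and -0.70 and -0.42 for Cxcl1 (Lbr, then Lmna), none of them 2-fold. Cxcl2 was at 1.37 FPKM with the Lbr knockout against 0.375 FPKM, and at 2.77 FPKM with the Lmna knockout against 3.79 FPKM. Cxcl3 was at 1.55 FPKM with the Lbr knockout against 1.67 FPKM, and at 1.89 FPKM with the Lmna knockout against 3.18 FPKM. All of Cxcl1, Cxcl2 and Cxcl3 are highest in the Lmna-litter wild type.

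The remaining compared members did not reach 2-fold in either knockout. Ccl4, like Ccl3 a product of activated macrophages, was at 1.21 FPKM with the Lbr knockout against 0.486 FPKM, and at 3.32 FPKM with the Lmna knockout against 4.02 FPKM. Ccl5 was at 0.663 FPKM with the Lbr knockout against 0.103 FPKM, and at 1.82 FPKM with the Lmna knockout against 1.98 FPKM. Both again have their lowest value in the Lbr-litter wild type. Cxcl10 was at 3.29 FPKM with the Lbr knockout against 1.87 FPKM, and at 2.42 FPKM with the Lmna knockout against 3.73 FPKM. Ccl25 was at 3.98 FPKM with the Lbr knockout against 3.27 FPKM, and at 3.01 FPKM with the Lmna knockout against 1.30 FPKM. Ccl11, Ccl27a and Cxcl14 stayed between 0.755 and 3.13 FPKM. Ccl8, which was not compared in myoblasts for its low mean, was at 0.383 FPKM with the Lbr knockout against 0.329 FPKM, and at 1.46 FPKM with the Lmna knockout against 0.530 FPKM. Ccl27b was listed at 0 with the Lbr knockout against 0.369 FPKM, and was at 0.787 FPKM with the Lmna knockout against 0.735 FPKM. The lymphoid ligands were all but missing from myoblasts: Cxcl13 and Xcl1 were listed at 0 in all 4 columns and Ccl19 reached at most 0.0966 FPKM. Ccl22 and Ccl24 stayed under 0.05 FPKM, and Cxcl9 reached at most 0.205 FPKM. Of the 12 lymphotoxin and NF-kB genes compared, 2 were past 2-fold in the Lbr knockout (Tnf and Icam1) and 0 in the Lmna knockout, and of 6 interferon genes 0 in either. Tnf was at 3.07 FPKM with the Lbr knockout against 0.249 FPKM, and at 2.08 FPKM with the Lmna knockout against 3.48 FPKM. Icam1 was at 3.28 FPKM with the Lbr knockout against 0.992 FPKM, and at 3.03 FPKM with the Lmna knockout against 2.92 FPKM. For both genes the Lbr-litter wild type is the low column, as for Ccl12.

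**Figure D5:**
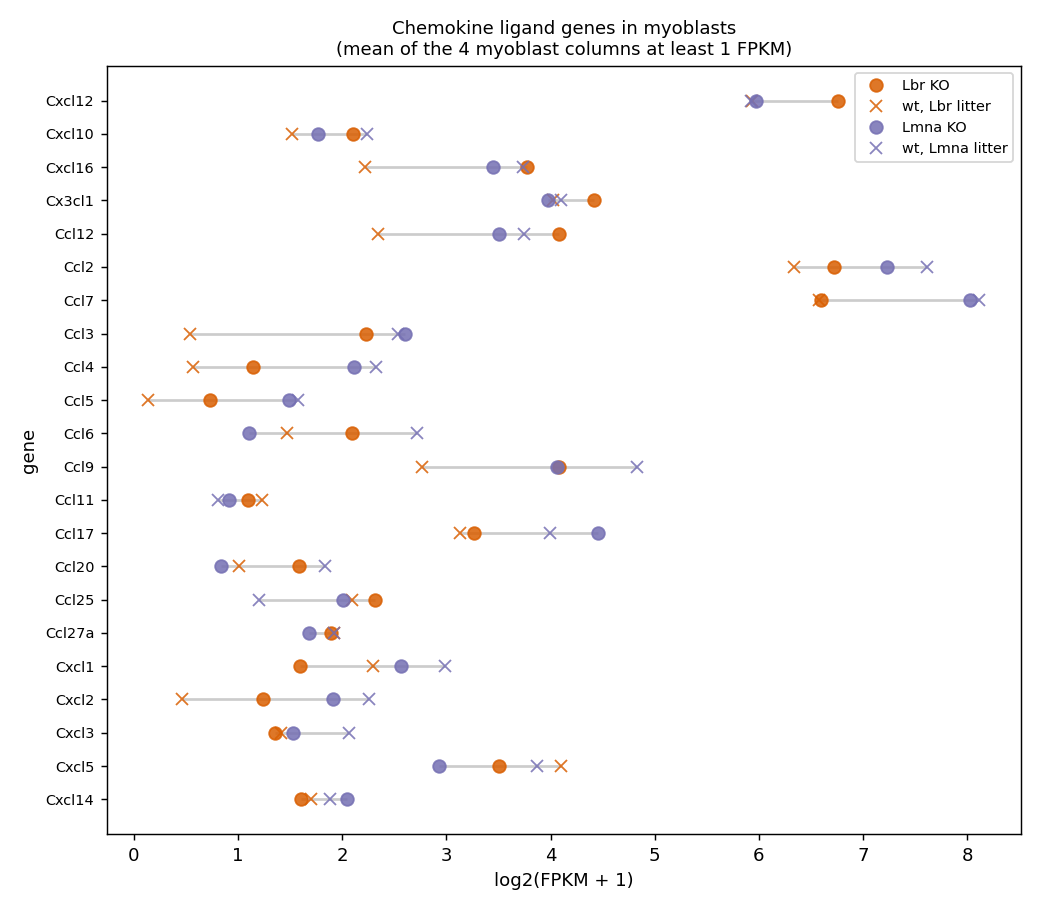
Levels of the 22 compared chemokine ligand genes in myoblasts on the log2(FPKM + 1) scale, with circles for knockouts and crosses for their littermates (orange for the Lbr litter, purple for the Lmna litter). The orange cross is the leftmost mark for Ccl12, Ccl9, Cxcl16 and Ccl3, the purple pair stands apart for Ccl7, and the orange circle stands alone on the right for Cxcl12.

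A test was possible only where both wild-type myoblast columns were taken as 1 group. With limma on log2(FPKM + 1) over 11524 genes, 0 of 22 members passed an adjusted p of 0.05 in either knockout. Over all genes 0.746% did for Lbr and 0.842% for Lmna. An unadjusted p under 0.05 in limma was found for 3 of 22 members in each knockout. Over all 11524 genes this number was 360 for Lbr and 412 for Lmna. The lowest adjusted p among the members was 0.349 in limma for Cxcl5 in the Lmna knockout, with a log2 difference of -1.05 (SE 0.314), and 0.548 for Cxcl1 in the Lbr knockout, with -1.05 (SE 0.345). In the same fit Cxcl12 differed by 0.83 (SE 0.336) in the Lbr knockout, with an adjusted p in limma of 1.00. The spread of each gene comes from the wild types of different litters, with 1 residual degree of freedom. In limma it was drawn toward a variance shared over all genes tested, with 13.5 prior degrees of freedom. The SEs of Cxcl5, Cxcl1 and Cxcl12 thus rest mostly on that shared variance. Where the wild types differ strongly between the litters, that difference makes the SE larger. For Ccl9, with a log2 difference of 2.06 between the wild types, the SE was 0.563. For Ccl27a, with 0.0066, it was 0.308. The knockout columns were assumed to vary like the wild types.

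Between the tissues, the monocyte ligands Ccl2 and Ccl7 were far lower in muscle, and Ccl11 and Ccl27a were higher. Of 24 members compared, 6 were at least 2-fold higher in wild-type muscle than in the mean of the wild-type myoblasts and 12 were lower, where 17.3% of all genes were higher and 36.5% lower. Read against shares of this size, neither count is a result about the members. The 6 higher were Ccl11 (log2 difference 2.83), Ccl27a (2.44), Ccl21c (2.11), Cxcl14 (1.92), Ccl5 (1.67) and Ccl27b (1.04). The lower values were led by Ccl7 (-6.41), Ccl2 (-5.43), Cxcl5 (-3.76), Cx3cl1 (-3.36) and Ccl17 (-2.99). Ccl7 was at 0.911 FPKM in wild-type muscle, against 94.2 FPKM and 276 FPKM in the wild-type myoblasts, and Cx3cl1 was at 0.627 FPKM in wild-type muscle, against 15.2 FPKM and 16.1 FPKM. The other 7 were Ccl12, Ccl9, Cxcl1, Cxcl16, Cxcl10, Cxcl2 and Cxcl12, from -2.33 to -1.15. The median log2 difference over all genes was itself -0.55, and with columns centred on that median Cxcl12 and Cxcl2 no longer reached 2-fold (-0.61 and -0.63).

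The promoters of the members were read for motifs because several of the inflammatory ligands followed the same myoblast columns. RefSeq promoter windows of GRCm38.p6, 300 bases from 250 before to 50 after a start, were at hand for 27 members with 33 windows. The kappa-B motif, the binding element of NF-kB, searched on both strands, was found in 7 of 33 member windows (21.2%), beside 4.51% of all 32851 windows. They were those of Ccl20, Ccl27a, Ccl9, Cxcl1, Cxcl10, Cxcl2 and Cxcl3. Of the other ligands that were higher in the Lmna-litter than in the Lbr-litter wild type, Ccl3, Ccl6 and Ccl12 had windows without a match, and for Ccl27a, the ligand abundant in muscle, the match lay in 1 of 3 windows. The letters TATAAA on both strands, which cannot overlap a kappa-B match, were found in 30.3% of member windows, beside 13.6% of all. Shown are the 170 bases before the start of the neutrophil ligands Cxcl1, Cxcl2 and Cxcl3, which are highest in the same myoblast column, of Ccl9, and of Ccl19 and Ccl21a, in whose windows the motif was not found. The capitals mark the kappa-B match, which begins at -71 in Cxcl1, -97 in Cxcl2, -73 in Cxcl3 and -35 in Ccl9. A match describes the letters and is not evidence of binding.
Cxcl1, chr5:90891075-90891244, strand plus: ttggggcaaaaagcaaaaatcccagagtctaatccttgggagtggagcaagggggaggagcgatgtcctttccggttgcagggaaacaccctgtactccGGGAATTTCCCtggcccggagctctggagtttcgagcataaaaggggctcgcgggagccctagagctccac
Cxcl2, chr5:90903729-90903898, strand plus: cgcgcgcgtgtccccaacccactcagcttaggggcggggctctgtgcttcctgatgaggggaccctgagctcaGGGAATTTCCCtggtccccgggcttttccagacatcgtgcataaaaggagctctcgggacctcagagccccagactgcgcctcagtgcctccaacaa
Cxcl3, chr5:90785931-90786100, strand plus: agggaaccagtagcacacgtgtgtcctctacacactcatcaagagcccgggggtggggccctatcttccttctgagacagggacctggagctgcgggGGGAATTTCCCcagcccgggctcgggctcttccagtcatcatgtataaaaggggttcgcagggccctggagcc
Ccl9, chr11:83578637-83578806, strand minus: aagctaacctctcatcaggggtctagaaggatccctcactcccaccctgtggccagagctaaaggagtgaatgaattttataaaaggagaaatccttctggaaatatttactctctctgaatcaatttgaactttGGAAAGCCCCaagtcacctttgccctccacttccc
Ccl19, chr4:42756366-42756535, strand minus: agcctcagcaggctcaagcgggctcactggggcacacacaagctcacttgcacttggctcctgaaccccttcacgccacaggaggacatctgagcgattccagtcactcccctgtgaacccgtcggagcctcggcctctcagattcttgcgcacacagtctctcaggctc
Ccl21a, chr4:42773992-42774161, strand minus: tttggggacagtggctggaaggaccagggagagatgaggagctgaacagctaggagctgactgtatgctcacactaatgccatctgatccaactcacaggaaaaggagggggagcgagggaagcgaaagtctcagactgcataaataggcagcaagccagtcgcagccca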

How the data were processed

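Per the labels' protocols, total RNA was prepared with TRIZOL and RNeasy columns. The authors deposited FPKM values with a single column per group; the submitters' processing notes name the build mm9, and aligner, annotation and how 2 samples became 1 column: not given in the sources used here. Column names matched all 7 columns to groups, 0 unmatched. Differences were taken on log2(FPKM + 1) and called at 2-fold. Genes entered with 1 FPKM or more on average in the tissue's columns (all columns between tissues) and none listed at 0. The 4 myoblast columns were also fitted with limma 3.58.1 (R 4.3.3, variance trend, Benjamini-Hochberg adjustment), with both wild types as 1 group. The arithmetic was tested on simulated data. Values are given for every member at 1 FPKM or more in some column. Of each other list up to 4 genes are given, by size of change or for running against their list. The members and lists were chosen with earlier results of these data known. Depth is unknown. Alternatives were pseudocounts of 0.1 and 5, filters of 0 and 5 FPKM, genes at 0 kept, centring, quantile normalization and other wild types. Coordinates and sequences are from GRCm38 and were not joined to mm9 values. One gene of the context lists is not reported here.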

Additional observations from a re-analysis of the deposited data

Results flagged for a closer look

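Ccl5 and Ccl6 differed in direction between the tissues of the Lmna knockout. Ccl5 had a log2 difference from wild type of -0.0832 in Lmna-knockout myoblasts and 1.92 in Lmna-knockout muscle. Ccl6 had -1.62 in Lmna-knockout myoblasts and 0.932 in Lmna-knockout muscle. The difference between the tissues was not tested, and for Ccl5 the myoblast value is close to none.

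The naming rule leaves out rows of Ccl21 copies that carry signal in muscle. Gm1987 was at 0.0375 FPKM with the Lbr knockout and 0.0820 FPKM with the Lmna knockout, against 10.5 FPKM in wild-type muscle. Gm13304 was at 6.02 FPKM with the Lbr knockout and 2.91 FPKM with the Lmna knockout, against 3.39 FPKM in wild-type muscle. These differences were not tested.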

How the results depend on the processing

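Most counts of ligands past 2-fold moved with the pseudocount. Shares over all genes were not taken for these alternative counts, which show only how the calls depend on the settings. In Lbr-knockout myoblasts the 4 higher members became 7 with a pseudocount of 0.1, 2 with 5, 1 when the other litter supplied the wild type and 1 with the mean of both wild types, where the lower members became 4 and 1 instead of 0. With the other litter Ccl3 reversed to -0.31 and Ccl9 to -0.75. In Lmna-knockout myoblasts the higher members became 1 with a pseudocount of 0.1, 9 against the other litter and 1 against both, and the 2 lower members became 0 with a pseudocount of 5 or a filter of 5 FPKM and 1 with quantile normalization, the other litter or both wild types. In Lbr-knockout muscle the 7 higher members became 11 with a pseudocount of 0.1 and 3 with a pseudocount or filter of 5. In Lmna-knockout muscle they became 14, 3 and 3 under the same settings, and the lower members became 1 with a pseudocount of 0.1, centring or quantile normalization. Between the knockout muscles the single higher member became 2 with a pseudocount of 0.1 or quantile normalization and 0 with a pseudocount or filter of 5. Between the wild-type myoblasts the 10 higher members became 3 with a pseudocount of 5 and 5 with a filter of 5 FPKM, and 1 was lower with a pseudocount of 0.1. Between the tissues the 6 higher became 3 with a pseudocount of 5. Without a filter limma called Ccl24 in the Lbr knockout, at 0.0486 FPKM there and listed at 0 in both wild-type myoblast columns. That setting called a larger share of all genes than of the members. A call so near the floor is not a result about the members. The cause of these shifts was not tested, apart from the smaller number of genes that the stricter filter leaves. Over single members, 374 values kept their call, 44 lost it and 2 reversed. Many of the 374 could not change, because a filter leaves a value as it is and a pseudocount of 0.1 only enlarges it. With a pseudocount of 5, 22 values kept their call and 27 lost it. With the other litter's wild type, 4 lost it and 2 reversed. Summing the Ccl21a,Gm1987 and Gm1987 rows, and a filter on the wild-type columns, were chosen after seeing the data.

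Centring removes a median of 0.10 in Lbr-knockout and 0.13 in Lmna-knockout muscle. No paired analysis was possible because each group has a single column without a replicate number, and omission of single samples was not run for the same reason. The shared wild-type muscle column and the lone Lbr-litter wild type each decide several values, and low muscle values rest on few fragments.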

Other observations

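The platelet CXC chemokines, which the symbol rule leaves out, also differed between the myoblast columns. Pf4, which platelets and macrophages both carry, was at 48.6 FPKM in Lbr-knockout myoblasts against 12.2 FPKM in their littermate, and at 40.5 FPKM in Lmna-knockout myoblasts against 40.9 FPKM in theirs. The low column is the Lbr-litter wild type, as for Ccl12 and Cxcl16. In muscle Pf4 was at 40.3 FPKM with the Lbr knockout and 37.3 FPKM with the Lmna knockout, against 35.3 FPKM in wild-type muscle. Ppbp, the other platelet chemokine, was at 15.5 FPKM with the Lbr knockout against 28.1 FPKM, and at 19.3 FPKM with the Lmna knockout against 33.6 FPKM, lower in each knockout than in its own littermate like Cxcl1 and Cxcl5 but below 2-fold. Ppbp was low in muscle, at 0.722 FPKM with the Lbr knockout and 2.80 FPKM with the Lmna knockout, against 1.14 FPKM in wild-type muscle.

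The cytokine Il6 was at 9.99 FPKM in Lbr-knockout myoblasts against 18.0 FPKM in their littermate, and at 11.02 FPKM in Lmna-knockout myoblasts against 6.68 FPKM in theirs. Its highest column is the wild type in which most inflammatory ligands are lowest, and it was listed at 0 in all muscle columns. The scavenging receptor Cxcr7, which takes up Cxcl12, was at 12.3 FPKM with the Lbr knockout and 8.77 FPKM with the Lmna knockout, against 12.1 FPKM in wild-type muscle, and at 2.67 to 3.81 FPKM in myoblasts.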
